A study of Mus musculus with 3 samples.

Results

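A set of 8 genes that respond to Wnt signalling was followed across the cells of the developing mouse palate: the feedback inhibitors Axin2, Nkd1, Nkd2 and Apcdd1, the R-spondin receptor Lgr5, the nuclear factors Lef1 and Tcf7, and the cell cycle gene Ccnd1. These 8 members were chosen by name as classical targets or feedback genes of the pathway, out of 32285 genes in the count tables, and all 8 were detected in each library. The study profiled single cells of wild-type C57BL/6J palatal shelves on the embryonic days written here E13.5, then E14.5, then E15.5, over which the shelves grow, lift and fuse. Each stage is 1 library made from the methanol-fixed cells of 3 pooled embryos, so no stage has a replicate, stage and library cannot be told apart, and no test between stages was possible. The series was designed to describe the palate's transcriptome over time and place and to study Wnt-dependent steps in Pax9-deficient embryos; mutant embryos are not analysed here.

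Wnt ligands bind Frizzled receptors with an LRP co-receptor and shut down the complex that destroys beta-catenin. Beta-catenin then enters the nucleus and, on DNA-bound TCF/LEF factors, switches on target genes. Several of these targets act back on the pathway: Axin2 is a scaffold of the destruction complex, Nkd1 and Nkd2 bind Dishevelled in the receiving cell, and Apcdd1 is a membrane protein that inhibits Wnt signalling at the receptor. In the palate the pathway is known for its part in the growth of the shelves and in their fusion.

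TCF/LEF factors bind sites with the core CTTTG, read as CAAAG on the other strand. The core stood in 53.9% of all 32851 RefSeq promoters of 300 bases on GRCm38.p6, so a match is common. RefSeq promoters were matched for 5 of the 8 members with 9 start sites, and the core was present at 4 starts, all of Lef1. The longer forms CTTTGAA and CTTTGAT, found in 5.14% and 3.73% of all promoters on either strand, were present at none of the 9. The 250 bases upstream of a start are shown for Axin2 and Lef1. Axin2 is used below to divide cells by its detection and has no core in this window. The core match of Lef1 is in capitals (Axin2 chr11:108920099-108920348, Lef1 chr3:131110047-131110296, plus strand, written 5′ to 3′).
Axin2: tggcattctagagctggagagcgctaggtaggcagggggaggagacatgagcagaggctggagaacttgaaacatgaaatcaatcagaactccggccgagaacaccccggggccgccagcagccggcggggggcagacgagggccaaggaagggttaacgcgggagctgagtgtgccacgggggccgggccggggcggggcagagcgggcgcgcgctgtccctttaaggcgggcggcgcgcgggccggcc
Lef1: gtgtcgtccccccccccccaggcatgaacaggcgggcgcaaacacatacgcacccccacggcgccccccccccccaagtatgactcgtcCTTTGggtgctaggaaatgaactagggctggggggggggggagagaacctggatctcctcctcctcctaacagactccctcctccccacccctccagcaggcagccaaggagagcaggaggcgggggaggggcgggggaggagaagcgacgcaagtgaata
These letters are a description of the reference sequence and say nothing of binding.

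Cells were assigned to a class when they held at least 3 markers of its list and at least 1 more than of any other list, and none of the 8 members is a marker. Mesenchymal and chondrogenic cells together are called the mesenchymal lineage, and it held 418, 1080 and 1608 cells. Values given in 3s without a stage stand in the order of the stages, from E13.5 on. Levels are unique molecular identifiers (UMIs) of a gene summed over the cells of a class, per 1000000 UMIs of that class (CPM), with an exact 95% Poisson interval. The intervals cover counting error only, not differences between embryos, and they are too narrow where a few cells hold many UMIs of a gene.

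The E13.5 library stood apart from the others. Of its 3583 cells kept, 1631 (45.5%) were neuronal and 418 (11.7%) of the lineage, against 61.7% and 62.2% of lineage cells at E14.5 and E15.5. The lineage cells themselves differed: all 10 mesenchymal markers were detected at each stage, but they summed to 2624, 6333 and 7413 CPM, while the 10 neuronal markers summed to 520, 242 and 174 CPM. The part of these differences in the stage comparisons was not tested, beyond the alternatives named with them. Each library shared 2 to 4 cell barcodes with another. The 10 epithelial markers were all detected in epithelial cells of each library. Depth was 11472663, 5293977 and 8313677 UMIs a library.

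The genes lie on several chromosomes of the mouse assembly GRCm38: Axin2 (ENSMUSG00000000142) at chr11:108920349-108950783, Lef1 (ENSMUSG00000027985) at chr3:131110471-131224356, Tcf7 (ENSMUSG00000000782) at chr11:52252371-52283014, Nkd1 (ENSMUSG00000031661) at chr8:88521354-88594884, Nkd2 (ENSMUSG00000021567) at chr13:73818534-73847631, Lgr5 (ENSMUSG00000020140) at chr10:115450311-115587780, Apcdd1 (ENSMUSG00000071847) at chr18:62922231-62961179 and Ccnd1 (ENSMUSG00000070348) at chr7:144929931-144939925. All are protein-coding genes in GENCODE. Each but Apcdd1 overlaps another annotated gene, on the same strand for Lef1, Tcf7 and Nkd1. Whether the overlap affected their counts was not tested.

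Among the feedback inhibitors, Nkd1 was present throughout in the mesenchymal lineage and close to 0 in the epithelium. In the lineage, Nkd1 had 35 UMIs (25.7 CPM, interval 17.9 to 35.7), then 124 (39.3 CPM, 32.7 to 46.8), then 279 (56.8 CPM, 50.3 to 63.9). In epithelial cells it had 0, 1 and 2 UMIs, and the 2 UMIs at E15.5 correspond to 2.41 CPM (0.292 to 8.70). The lineage and epithelial intervals did not overlap at any stage. Nkd1 was also higher in the lineage than in all other gated cells together, by 1.16, 2.37 and 2.71 on the log2 scale (fold intervals 1.52 to 3.54, 2.84 to 13.7 and 4.37 to 12.8).

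Axin2, often used as a general readout of the pathway, had 42, 127 and 230 UMIs in the lineage: 30.8 CPM (22.2 to 41.6), 40.2 CPM (33.5 to 47.9), then 46.8 CPM (41.0 to 53.3). Epithelial cells had 4, 3 and 17 UMIs, or 14.4, 9.03 and 20.5 CPM. The lineage lay above the other gated cells by 0.67 (1.12 to 2.31), 1.88 (2.18 to 7.82) and 1.56 (2.11 to 4.63) on the log2 scale. At E13.5 the neuronal cells held 118 Axin2 UMIs at 19.8 CPM (16.4 to 23.7), whose interval overlapped that of the lineage.

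Apcdd1 and Nkd2 gave fewer counts. Apcdd1 had 20, 98 and 181 UMIs in the lineage, which made 14.7 CPM (8.95 to 22.6), 31.0 CPM (25.2 to 37.8), then 36.8 CPM (31.7 to 42.6), and it had 0, 4 and 16 UMIs in epithelium. Its E15.5 lineage interval lay above that of epithelium, the next class (19.3 CPM, 11.0 to 31.3). Nkd2 had 15, 52 and 79 lineage UMIs, which made 11.0 CPM (6.15 to 18.1), 16.5 CPM (12.3 to 21.6), then 16.1 CPM (12.7 to 20.0). Epithelium had 0, 1 and 10 Nkd2 UMIs, and at E15.5 its 12.0 CPM (5.78 to 22.2) overlapped the lineage interval.

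Lgr5, a receptor for R-spondins that marks stem cells in several epithelia, was a mesenchymal gene in these libraries. It had 119, 304 and 485 lineage UMIs, a level of 87.2 CPM (72.3 to 104), 96.3 CPM (85.8 to 108), then 98.7 CPM (90.1 to 108). Epithelial cells had 7, 13 and 19 UMIs, or 25.2, 39.1 and 22.9 CPM. Lgr5 was the only member whose lineage interval lay above that of the next class in all 3 libraries, and it exceeded the other gated cells by 2.83, 1.87 and 2.14 on the log2 scale.

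The nuclear factors differed in how far they spread. Lef1 had 109, 237 and 247 UMIs in the lineage, or 79.9 CPM (65.6 to 96.4), 75.1 CPM (65.8 to 85.3), then 50.3 CPM (44.2 to 57.0). At E14.5 the lineage stood clear of every other class, of which myeloid cells were next at 23.8 CPM (6.49 to 61.0). At E15.5 epithelium followed closely at 47.0 CPM (33.4 to 64.2), and at E13.5 the neuronal cells carried 308 Lef1 UMIs at 51.6 CPM (46.0 to 57.7). The highest Lef1 level at E13.5 was that of the 20 myeloid cells, at 102 CPM on 6 UMIs. Its interval overlapped that of the lineage. Tcf7 was scarce throughout, with 6, 48 and 56 UMIs in the lineage: 4.40 CPM (1.61 to 9.57), 15.2 CPM (11.2 to 20.2), then 11.4 CPM (8.61 to 14.8). The highest Tcf7 level in each library belonged to another class that rested on 3 UMIs, and its interval overlapped that of the lineage.

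Ccnd1, which encodes the G1 cyclin D1 and is read in many tissues without Wnt, followed another order. In the lineage it had 116, 194 and 208 UMIs, or 85.0 CPM (70.3 to 102), 61.4 CPM (53.1 to 70.7), then 42.3 CPM (36.8 to 48.5), the lowest class level in both later libraries. Neural progenitors, with 157 cells at E13.5 and 7 and 3 in the later libraries, too few to give a level, reached 241 CPM (199 to 289), with an interval above that of every other class in that library. Glial cells of the Schwann lineage reached 401 CPM (290 to 540) and endothelial cells 212 CPM (152 to 287) at E15.5. The lineage was below the other gated cells by a log2 ratio of -0.84 at E14.5 (fold 0.44 to 0.70) and -1.47 at E15.5 (0.29 to 0.43).

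**Figure D1:**
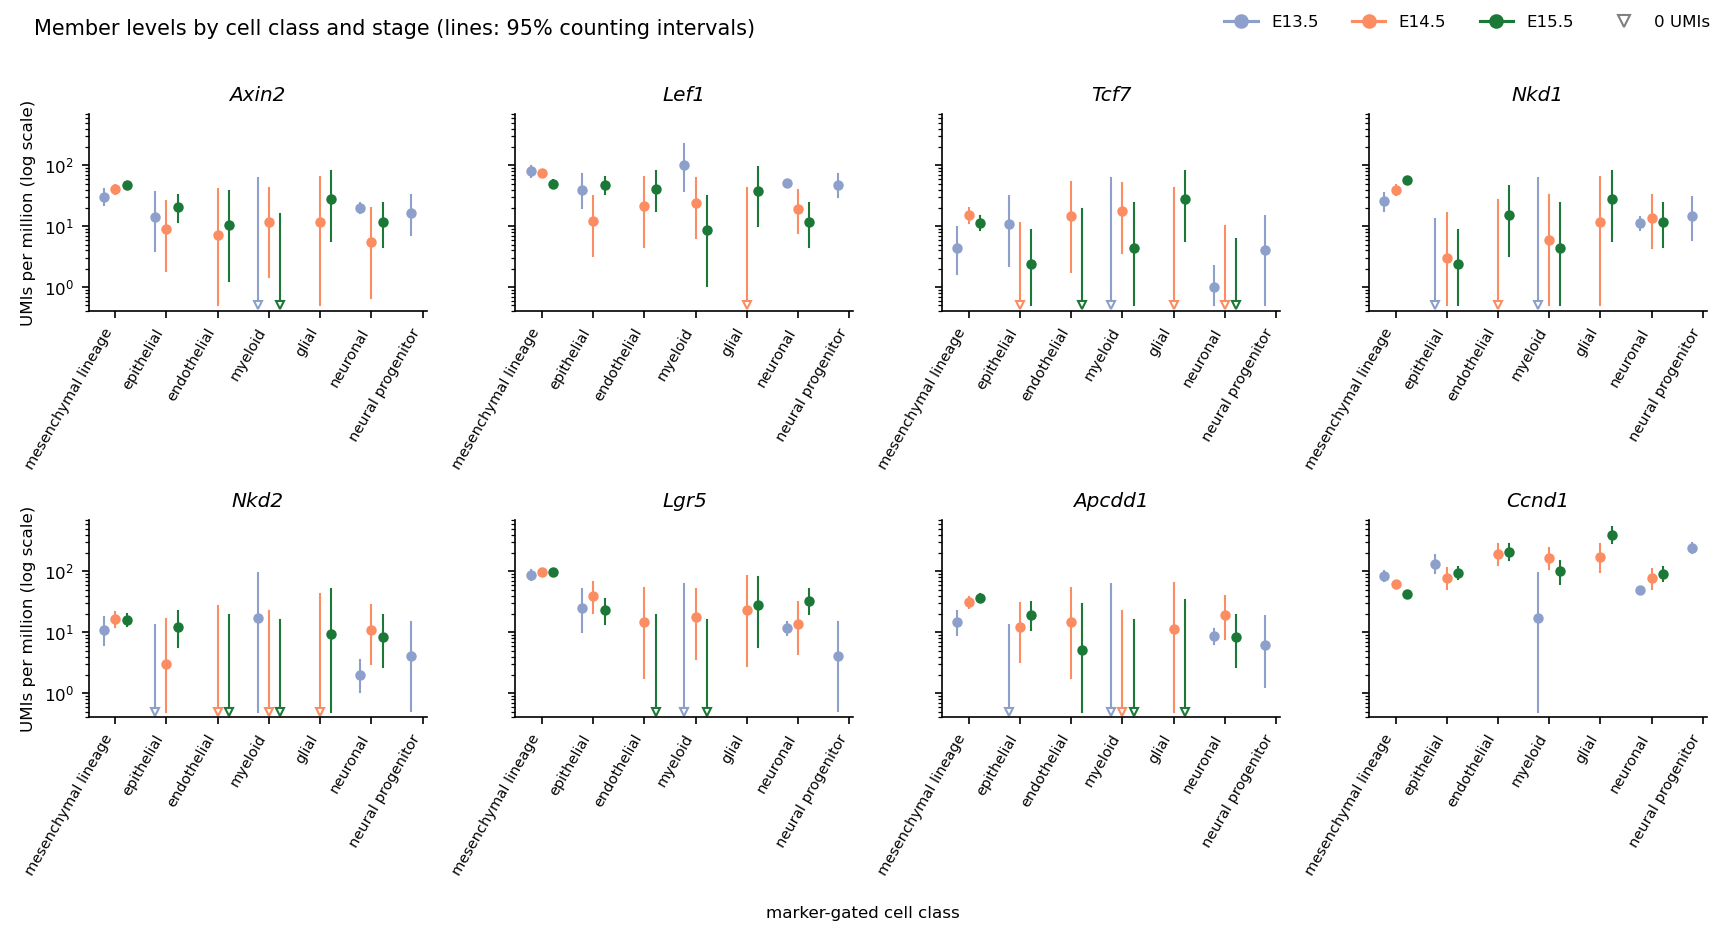
Levels of the 8 genes in each marker-gated class, in CPM on a log axis, with a point for each stage, lines for 95% Poisson intervals cut at the foot of the axis, and open triangles for 0 UMIs; classes with under 20 cells are not drawn. The lineage points of Lgr5 lie above those of every other class, while the lineage points of Ccnd1 at E14.5 and E15.5 are the lowest of their libraries.

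Counted over the members, the lineage held the highest level for 4 of 8 genes at E13.5 and for 6 of 8 at E14.5 and E15.5. The share of all genes highest in the lineage was not computed, so these counts have no base to compare with. Among them, the interval of the next class overlapped for Axin2, Nkd1 and Apcdd1 at E13.5 and for Axin2, Nkd2 and Apcdd1 at E14.5. At E15.5 it overlapped for Axin2, Lef1, Nkd1 and Nkd2. At E14.5, 7 of 8 members were more than 2-fold higher in the lineage than in other gated cells, where 9.44% of all tested genes were. At E15.5 it was 5 of 8, against 10.5% of all genes, and at E13.5 3 of the 7 members with enough counts (Nkd1, Nkd2 and Lgr5), against 11.8%. Ccnd1 was more than 2-fold lower at E15.5, where 16% of genes were lower by as much. The genes that led each class, over the other gated cells, were cartilage, tendon and matrix genes for the lineage (Hapln1 and Cnmd, then Matn1 and Aspn, then Mkx and Lum in stage order), Sfn and Anxa1 for E13.5 epithelium, Cxcl2 and C1qc for E13.5 myeloid cells, and C1qc and Ms4a7 for those of E14.5. Neural progenitors were led by Gm29260 and Ttyh1, and E14.5 endothelium by Cdh5 and Sox17.

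Epithelium gave a pattern of its own for Lef1. Its epithelial level was 39.6 CPM (11 UMIs, 19.8 to 70.8), 12.0 CPM (4 UMIs, 3.28 to 30.8), then 47.0 CPM (39 UMIs, 33.4 to 64.2). Within epithelium, the cells with at least 2 markers of stratified epithelium held 7 of the 11 UMIs at E13.5 (88.7 CPM in 20 cells, against 20.1 CPM in 52 other epithelial cells; fold interval 1.12 to 20.5) and 35 of the 39 at E15.5 (67.5 CPM in 139 cells, against 12.8 CPM in 77; 1.88 to 20.4). Both libraries thus placed Lef1 mainly in stratified cells, which cover the oral side of the palate, although at E13.5 23.1% of all tested genes were at least 2-fold higher in them and at E15.5 14.3%. The E15.5 difference depended on the gate: with 1 more marker required for each gate the levels were 52.6 and 48.1 CPM, a log2 difference of 0.13 in place of 2.31. Apcdd1 followed Lef1 at E15.5, with 15 UMIs in stratified and 1 in other epithelial cells (28.9 and 3.21 CPM; 1.39 to 380). Ccnd1 had the opposite order, at 171, 146 and 115 CPM in other epithelial cells and 38.0, 26.5 and 81.0 CPM in stratified ones. The fold intervals of Ccnd1 lay below 1 at E13.5 (0.044 to 0.71) and E14.5 (0.054 to 0.50), and held 1 at E15.5 (0.44 to 1.13).

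Over the stages, Apcdd1, Nkd1, Axin2 and Tcf7 were higher in the lineage of the E15.5 library than in that of E13.5, while Lef1 and Ccnd1 were lower. From E13.5 to E15.5 the log2 ratio, computed with 1 CPM added to both levels, was 1.27 for Apcdd1 (fold interval 1.58 to 4.21), 1.12 for Nkd1 (1.55 to 3.24) and 0.59 for Axin2 (1.09 to 2.17). For Nkd2 it was 0.51, with an interval of 0.84 to 2.74 that holds no difference. Tcf7 was higher by 1.20 (1.12 to 7.36), on 6 UMIs at E13.5. For Lgr5 it was 0.18 in the whole lineage, with an interval of 0.92 to 1.40 that holds no difference. Lef1 was lower, at -0.66 (0.50 to 0.80), and so was Ccnd1, at -0.99 (0.39 to 0.63). Apcdd1, Nkd1 and Tcf7 passed the 2-fold mark, 3 of 8 members, where 10.1% of the 11617 tested genes did so upward and 5.41% downward. The count was 2 with 5 CPM added, with a mean of at least 20 CPM, with classes from clusters and with the cell mix of E15.5. Between 10.2% and 15.2% of all genes then passed in either direction. Tcf7, at 15.2 CPM or less in the lineage, was left out where a mean of 20 CPM was required.

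Between E13.5 and E14.5, Tcf7 (1.59, fold 1.48 to 9.88) and Apcdd1 (1.03, 1.30 to 3.62) passed 2-fold, against 8.61% of all genes, Nkd1 was higher by 0.60 (1.04 to 2.30) and Ccnd1 lower, at -0.46 (0.57 to 0.92). Apcdd1 lay near the mark and was within 2-fold with 1 more marker for every gate (0.73), with no cell left out by doublet score (0.88), with 5 CPM added (0.87) and with the cell mix of E15.5 (0.82); Tcf7, on 6 UMIs at E13.5, was left out when a mean of 20 CPM was required. Between E14.5 and E15.5 no member passed 2-fold, as did 2.54% of all genes in either direction. Nkd1 was then higher by 0.52 (1.17 to 1.80), and Lef1 (-0.57, 0.56 to 0.80) and Ccnd1 (-0.53, 0.56 to 0.84) were lower. Against E13.5 the members had medians of 0.46 (E14.5) and 0.55 (E15.5), beside -0.01 and -0.03 over all tested genes; both medians share the E13.5 library. For Lef1 the later level was lower in lineage cells with no cycling signature (84.5, 75.5 and 43.4 CPM; E15.5 over E13.5 -0.94, fold 0.38 to 0.69), while in cycling lineage cells it was 72.7, 74.3 and 68.1 CPM (-0.09, 0.64 to 1.40). For Lgr5 the lineage value joined opposite ones: in lineage cells with no cycling signature it was at 70.0, 98.8, then 108 CPM (E15.5 over E13.5 0.62, fold 1.17 to 2.07), and in cycling ones at 114, 91.8, then 74.7 CPM (-0.60, 0.47 to 0.92). Whether cycling and other cells differ in these ratios was not tested. Ccnd1 was lower at E15.5 than at E13.5 in both, by -0.83 and -1.01.

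**Figure D2:**
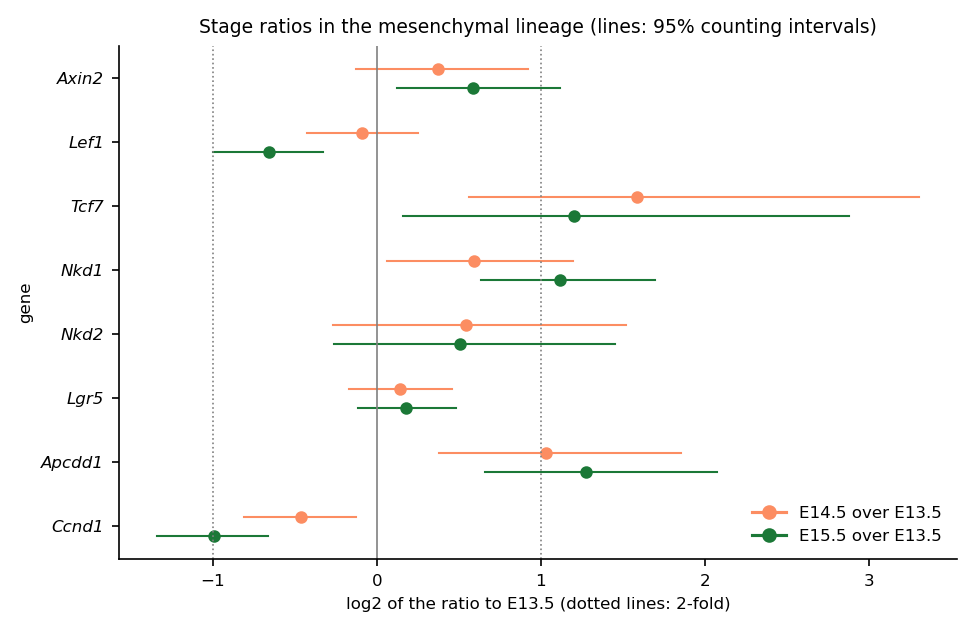
Log2 ratio of each gene's lineage level in both later libraries to that of E13.5 (x axis), with lines for the 95% counting interval of the ratio; the E13.5 library is shared by both ratios. The Apcdd1, Nkd1 and Tcf7 points for E15.5 lie right of the 2-fold line, while the Lef1 and Ccnd1 intervals for E15.5 lie left of 0.

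These ratios compare lineages of unlike makeup, since the clusters that hold most lineage cells at E15.5 were nearly absent at E13.5. Of 9 lineage clusters, 5 had between 0 and 11 cells in the E13.5 library, and the other 4 had at least 20 cells in each. Those 4 clusters held 84.0%, 39.8% and 31.8% of the lineage cells. With the levels of these 4 weighted in every library by their UMIs at E15.5, an alternative chosen after seeing the data, the E15.5 over E13.5 ratio kept its direction for Nkd1 (0.97), Tcf7 (1.50), Lef1 (-0.62) and Ccnd1 (-0.51). It was 0.76 for Apcdd1, whose E14.5 over E13.5 ratio then lay at -0.01 in place of 1.03, and 0.07 for Axin2, so the ratios of these genes changed with the clusters compared. Lgr5, at 0.18 in the whole lineage, was then at -1.69. Of its 119 UMIs at E13.5, 52 lay in 8 cells of the cluster led by Zg16 and Kif28, with mitotic genes (259 CPM, 193 to 339), against 20 UMIs at E15.5 (40.6 CPM, 24.8 to 62.7). With only cells that both the gate and their cluster placed in the lineage (382, 1036 and 1570 cells), 2 members passed 2-fold from E13.5 to E15.5, where 15.9% of all tested genes did in either direction. Without the cluster that held 105 of the 418 E13.5 cells 4 members did, against 17.6% of all genes. With all cells of each library 5 did, against 26.4% of all genes, a larger share than the 10.1% and 5.41% of the lineage alone together.

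Within the lineage, osteogenic cells had more Tcf7 and less Lgr5 than other mesenchymal cells. Osteogenic cells, those with at least 2 osteogenic markers such as Sp7 and Ibsp, numbered 69 and 95 in the later libraries, and 9 at E13.5, too few to compare. Their median depth of 3247 and 4450 UMIs a cell was above the 1920.5 and 2128.5 of the other mesenchymal cells. Tcf7 was at 44.6 CPM (19 UMIs) in osteogenic and 10.1 CPM (25 UMIs) in other mesenchymal cells at E14.5, and at 35.1 CPM (22 UMIs) and 7.68 CPM (32 UMIs) at E15.5. This made Tcf7 higher in osteogenic cells in both libraries, by log2 ratios of 2.04 (fold 2.29 to 8.33) and 2.06 (2.53 to 8.11). Across the alternatives the E15.5 ratio of Tcf7 ranged from 0.90, with 1 marker fewer, to 3.13, with each cell weighted equally.

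Ccnd1 was also higher in osteogenic cells, at 101 against 53.9 CPM at E14.5 (1.30 to 2.66) and 91.0 against 35.8 CPM at E15.5 (1.84 to 3.47). Lgr5 was lower in them in both libraries, at 51.7 against 113 CPM (0.28 to 0.71) and 51.1 against 107 CPM (0.32 to 0.68). The 2-fold call of Lgr5 depended on the gate: with 1 marker fewer it stood at 72.2 against 120 CPM, then 85.3 against 106 CPM, and at E15.5 with 1 marker more at 70.8 against 104 CPM. With 1 marker fewer the log2 ratio of Ccnd1 was 0.29, then 0.87. Lef1 was level at E14.5, at 70.5 against 80.6 CPM (0.57 to 1.29), and higher at E15.5, at 101 against 43.0 CPM (1.73 to 3.13). That Lef1 difference was not stable: without the 1 cell with most Lef1 UMIs the log2 ratio was 0.75 in place of 1.21. With 1 more marker required for every gate, which left 26 osteogenic and 1272 other mesenchymal cells, Lef1 had 3 UMIs at 11.8 CPM against 51.8 CPM and the ratio turned to -2.04, while Tcf7 stayed at 1.96 (10 UMIs) and Ccnd1 reached 2.12. Of the 4 feedback inhibitors, 3 were lower in osteogenic cells at E14.5, with Axin2 at 9.40 against 46.6 CPM (0.054 to 0.53), Nkd1 at 14.1 against 46.6 CPM (0.11 to 0.68) and Apcdd1 at 11.7 against 35.7 CPM (0.10 to 0.80), while Nkd2, at 11.7 against 17.8 CPM, had an interval that held no difference (0.20 to 1.66). With 1 marker fewer Nkd1 was level, at 39.0 against 41.3 CPM, Apcdd1 stood at 20.4 against 39.1 CPM, within 2-fold, and Axin2 at 22.1 against 53.2 CPM. At E15.5 the intervals of Axin2, Nkd1 and Apcdd1 held no difference, and Nkd2 was lower at 4.79 against 18.0 CPM (0.054 to 0.81). In all, 1 member was more than 2-fold higher and 4 lower in osteogenic cells at E14.5, against 5.69% and 5.79% of all genes, and 3 higher and 2 lower at E15.5, against 4.84% and 3.86%.

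Chondrogenic cells had little Lgr5: 27.3 CPM against 109 CPM in other mesenchymal cells at E13.5 (0.11 to 0.51) and 15.1 against 113 CPM at E14.5 (0.036 to 0.35). At E15.5, with 33 chondrogenic cells and 6 Lgr5 UMIs, the interval held no difference (0.17 to 1.03). At E14.5 Lef1 (30.3 against 80.6 CPM, 0.16 to 0.75) and Nkd1 (11.4 against 46.6 CPM, 0.050 to 0.73) were lower as well. In the other libraries their intervals held no difference. Lef1 was at 85.3 against 69.3 CPM at E13.5 (0.74 to 1.98) and 42.1 against 43.0 CPM at E15.5 (0.31 to 2.33). Nkd1 was at 20.5 against 27.7 CPM (0.25 to 1.83) and 50.5 against 59.0 CPM (0.31 to 1.89). Apcdd1 had 0 UMIs in the 94 chondrogenic cells of E13.5, where other mesenchymal cells had 16. Ccnd1 was higher in cartilage cells at E13.5, at 119 against 67.2 CPM (1.14 to 2.73). At E15.5 Axin2 was lower, with 1 UMI at 8.41 against 49.7 CPM (0.0043 to 0.95), while Ccnd1 and Tcf7 each had 2 UMIs in these cells (both 16.8 CPM, against 35.8 and 7.68 CPM), with intervals of 0.056 to 1.73 and 0.25 to 8.59 that held no difference.

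**Figure D3:**
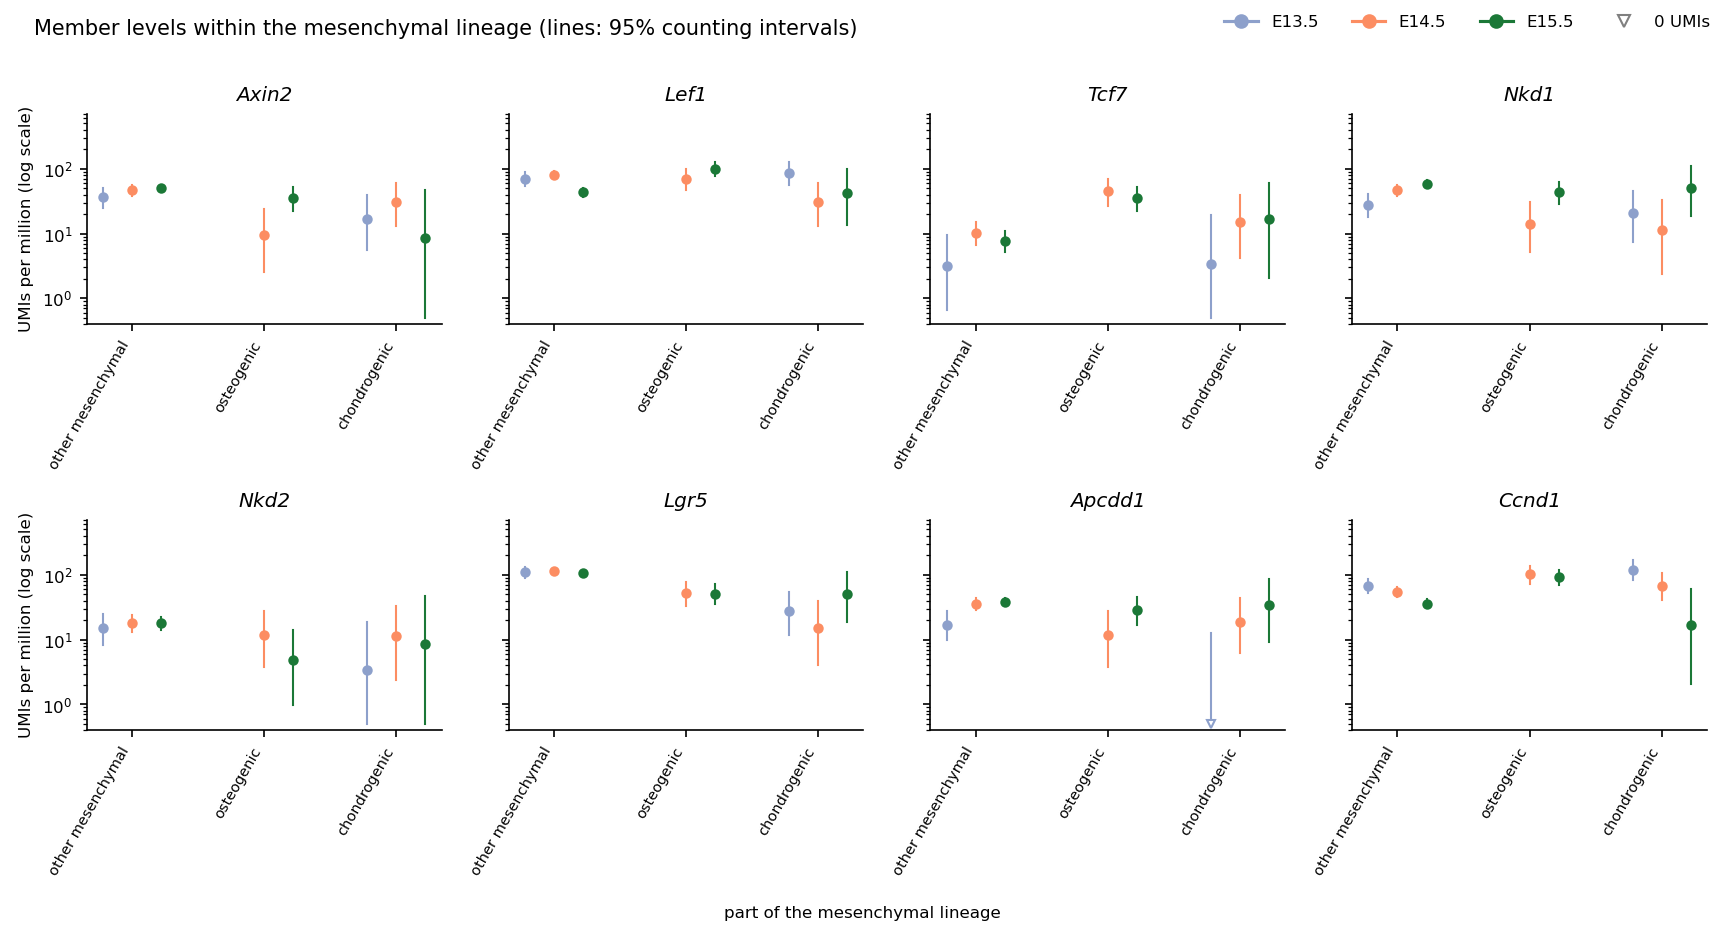
Levels of the 8 genes in other mesenchymal, osteogenic and chondrogenic cells of the lineage, in CPM on a log axis, by stage, with 95% Poisson intervals cut at the foot of the axis and open triangles for 0 UMIs; the 9 osteogenic cells of E13.5 are not drawn. Tcf7 stands at 44.6 and 35.1 CPM in osteogenic cells against 10.1 and 7.68 CPM in other mesenchymal cells, and Lgr5 is lower in osteogenic and in E13.5 and E14.5 chondrogenic cells.

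Lgr5 and Lef1 differed more between mesenchymal populations at E15.5 than Nkd1 did. Clusters were built without the 8 genes and are named here by their leading genes. The cluster led by Caly, Cdr2l and Cga, which also had Tfap2b among its leading genes and held 272 lineage cells at E15.5, had 255 of the 485 Lgr5 UMIs at that stage, a level of 315 CPM (277 to 356). At E14.5 the same cluster had 246 CPM (196 to 305) of Lgr5, the highest of 9 clusters there too. Its Lef1 level of 115 CPM (92.6 to 141) was high at E15.5, while its Ccnd1 level of 14.8 CPM (7.65 to 25.9) was among the lowest. The cluster led by Gm45238 and Cdh20, with Meox2, held the highest E15.5 levels of 3 feedback inhibitors: Nkd1 at 96.6 CPM (70.4 to 129), Apcdd1 at 81.5 CPM (57.7 to 112) and Axin2 at 73.0 CPM (50.5 to 102). Other clusters lay inside these intervals. Nkd1 was at 74.3 CPM in the cluster led by Trpm5 and 72.3 CPM in that led by Ubash3a. Apcdd1 was at 65.0 CPM in that led by Zg16, and Axin2 at 54.9 CPM in that led by Trpm5. The Gm45238 cluster was second in Lgr5, with 159 CPM (125 to 199). These rankings belong to the E15.5 library, since at E14.5 other clusters were highest for every member but Lgr5. There Nkd1, at 64.9 CPM (35.5 to 109), and Apcdd1, at 97.3 CPM (60.2 to 149), were highest in the cluster led by Ubash3a and Zfp112, and Axin2, at 64.6 CPM (41.4 to 96.1), in that led by Ccl21a and Dqx1, while the Gm45238 cluster had 56.7, 66.2 and 56.7 CPM of Nkd1, Apcdd1 and Axin2.

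At E15.5 other clusters had little of 1 member and kept another. The cluster led by Trpm5 and Slc24a2, with 233 cells at E15.5, had 2 Lef1 UMIs, or 3.23 CPM (0.39 to 11.7), but 74.3 CPM (54.4 to 99.1) of Nkd1 and 54.9 CPM (38.0 to 76.7) of Axin2. The cluster led by Ccl21a and Dqx1 had 4 Lgr5 UMIs, or 6.84 CPM (1.86 to 17.5), and 54.7 CPM (37.4 to 77.2) of Axin2. Its low Lgr5 level belongs to E15.5, since the same cluster had 85.1 CPM at E13.5 and 35.0 CPM at E14.5. Lef1 was highest, at 118 CPM (89.4 to 152), in the cluster led by Zg16 and Kif28, which also had the mitotic genes Esco2, Cep55 and Hmmr among its leading genes. Tcf7 was highest, at 28.2 CPM (16.1 to 45.8), in the cluster with Sox6, Runx2 and Ibsp, and had 0 UMIs in the cluster led by Cntnap2, Pomc and the neuronal gene Snap25, which held the highest Ccnd1 level at 82.7 CPM (60.3 to 111). From the highest to the lowest of 9 clusters at E15.5, the ratio was 46.0 for Lgr5 (17.8 to 170) and 36.5 for Lef1 (9.65 to 308), and 3.14 for Nkd1 (1.78 to 5.76). The highest and lowest were picked by their values, so these ratios are descriptions. At E14.5 Lef1 was highest in the Cntnap2 cluster, at 143 CPM (112 to 181), Tcf7 in the Zg16 cluster, at 30.3 CPM (13.9 to 57.5), and Ccnd1 in the cluster with Sox6, at 115 CPM (85.5 to 152). At E15.5 Axin2 lay between 18.4 and 73.0 CPM in all clusters but the cartilage cluster led by Matn1, where 1 UMI gave 8.72 CPM.

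**Figure D4:**
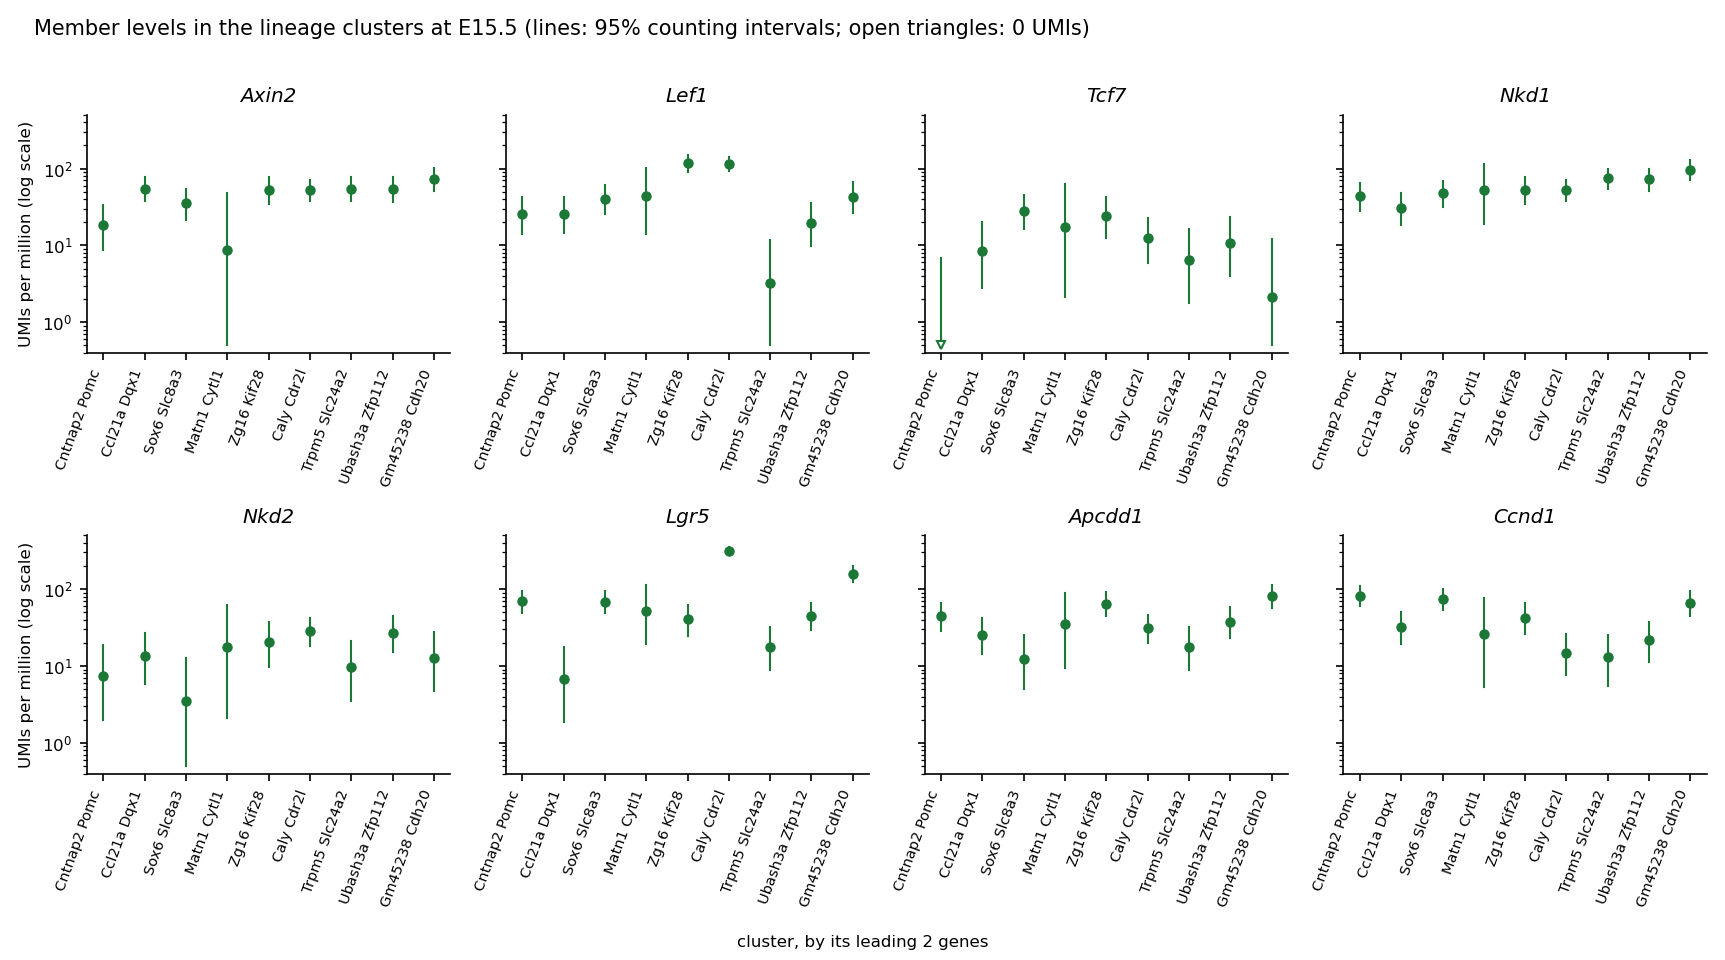
Levels of the 8 genes in the 9 lineage clusters at E15.5, in CPM on a log axis, with 95% Poisson intervals cut at the foot of the axis; each cluster is named by its leading 2 genes. Lgr5 spans from 6.84 to 315 CPM and Lef1 from 3.23 to 118 CPM, while Nkd1 spans from 30.8 to 96.6 CPM.

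The UMIs of Lgr5 and Lef1 were gathered in few cells. At E15.5 the 485 Lgr5 UMIs fell in 164 of 1608 lineage cells, 2.96 a positive cell, and 70.7% of them were in the 58 cells with at least 3. Lef1 had 2.02 UMIs a positive cell, with 50.2% in 25 cells, and up to 18 UMIs in a cell. Axin2 had 1.21 a positive cell, with 8.26% in cells with at least 3. At E13.5 the values were 2.70 for Lgr5, 1.79 for Lef1 and 1.05 for Axin2, and at E14.5 2.49, 2.04 and 1.10, so the order of these 3 genes was the same in each library. Since these counts come from few cells, the Poisson intervals of Lgr5 and Lef1 understate the spread.

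Lineage cells with a UMI of a patterning or bone regulator were compared with the rest, over 8 regulators picked after the cluster genes had been seen and with all cells thinned to 1500 UMIs. Of 64 comparisons of a member with a regulator in each later library, 5 at E14.5 and 16 at E15.5 had a fold interval that left out 1, as did 4 of 40 at E13.5; the intervals are not adjusted for this number. Over all tested genes in the same comparisons the interval left out 1 in 6.43%, 9.69% and, at E13.5, 3.9%, shares that are not matched to the members' counts. A single pair did so in both later libraries with the same direction: cells with Runx2, the master regulator of bone formation, had more Lgr5, at 161 against 79.1 CPM at E14.5 (1.39 to 3.00) and 146 against 82.2 CPM at E15.5 (1.31 to 2.43). The values that follow are of E15.5 unless another stage is named. Lef1 stood at 87.6 against 16.7 CPM in cells with and without Runx2 there (2.96 to 9.93), but at 74.1 against 64.0 CPM at E14.5 (0.71 to 1.89). Cells with Msx1 had 123 against 32.7 CPM of Lef1 (2.34 to 5.99), 38.6 against 8.92 CPM of Tcf7 (1.73 to 10.7) and 214 against 89.2 CPM of Lgr5 (1.73 to 3.29), while at E14.5 the Lef1 and Lgr5 intervals of Msx1 held no difference (0.39 to 1.80 and 0.57 to 1.71). Cells with Pax9, which is needed for palate closure, had more of the feedback inhibitors Axin2, at 82.0 against 42.2 CPM (1.14 to 3.20), and Nkd1, at 96.3 against 54.1 CPM (1.10 to 2.80). At E14.5 these were 48.0 against 44.0 CPM (0.44 to 2.37) and 54.1 against 39.5 CPM (0.58 to 2.91), and Apcdd1 was the inhibitor that stood higher in Pax9 cells, at 72.1 against 22.6 CPM (1.42 to 6.86). The 56 cells with Osr2 had 107 against 45.9 CPM of Axin2 (1.03 to 4.68) and 286 against 102 CPM of Lgr5 (1.75 to 4.34). At E14.5 both intervals of Osr2 held no difference, with Axin2 at 29.0 against 45.7 CPM (0.074 to 2.43) and Lgr5 at 174 against 111 CPM (0.79 to 2.86). Lef1 turned with Barx1: it was lower in cells with Barx1 at E14.5, at 25.6 against 75.8 CPM (0.090 to 0.91), and higher at E15.5, at 91.5 against 41.4 CPM (1.27 to 3.70).

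Cycling and other lineage cells differed in different members in each library. At E15.5, cells with a cycling signature had more Apcdd1, at 57.8 against 28.8 CPM (1.48 to 2.72), more Lef1, at 68.1 against 43.4 CPM (1.20 to 2.04), and less Lgr5, at 74.7 against 108 CPM (0.55 to 0.86). At E14.5 they had less Apcdd1, at 20.1 against 37.3 CPM (0.32 to 0.87), and at E13.5 more Lgr5, at 114 against 70.0 CPM (1.12 to 2.37). Ccnd1, the cell cycle gene, stood at 97.0 against 77.3 CPM, 69.9 against 56.6 CPM, then 54.2 against 37.8 CPM. It was thus above in cycling cells in each library, with an interval off 1 in the last (1.06 to 1.92).

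Few cells showed several members at once. After thinning to 1500 UMIs, which left out 106, 378 and 521 lineage cells and kept 312, 702 and 1087, Axin2 was detected in 4.81%, 6.41% and 6.90% of lineage cells (Clopper-Pearson intervals 2.72 to 7.81%, 4.71 to 8.48% and 5.47 to 8.57%), and in 9.57%, 10.6% and 11.8% without thinning. Myeloid cells, taken as background for free RNA, had an Axin2 UMI in 1 of 37 thinned cells of E14.5, and in 0 of 49 thinned cells of E15.5, which allows a share of up to 6.12% by a limit of 3 counts and 7.25% by Clopper-Pearson; median depths before the cell was thinned were 2241 UMIs in lineage and 1716 UMIs in myeloid cells at E15.5. As a share of cells the lineage was thus not separated from myeloid cells at this number of cells; by level it was at E15.5, since all 88 myeloid cells held 0 Axin2 UMIs (0 to 16.0 CPM) against 46.8 CPM in the lineage. Of Ccnd1, 18.4% of the 49 myeloid cells held a UMI. Nkd1 was found in 3.85%, 5.56% and 8.65% of thinned lineage cells, Apcdd1 in 1.28%, 3.85% and 4.05%, and Lgr5 in 6.09%, 8.55% and 7.64%. Lef1 went the other way, at 9.62%, 7.12% and 5.06%, as did Ccnd1, at 9.62%, 7.55% and 4.32%. No member at all was seen in 69.6%, 67.5% and 67.1% of these cells, and 3 or more in 0.321%, 1.28% and 0.828%.

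Co-detection of pairs was compared with the number of cells that the shares of both genes multiply to. Summed over the 28 pairs it was 24 against 18.2 cells, then 94 against 55.2, then 93 against 75.5. The ratios of these sums were 1.32, 1.70 and 1.23; pairs share cells and genes, so no interval is given. Of the pairs with a product of at least 3 cells, 6 of 7 lay above it in the E14.5 library and 6 of 12 in that of E15.5. At E14.5 Lef1 and Lgr5 met in 10 cells where 4.27 were the product (ratio interval 1.12 to 4.30), and Nkd1 and Lgr5 in 8 against 3.33 (1.04 to 4.73). At E15.5 the feedback inhibitors Nkd1 and Apcdd1 met in 9 cells against 3.80 (1.08 to 4.49). These 3 pairs were the only ones with an interval above 1 among those with a product of at least 3 cells, of which there were 0, 7 and 12 in the 3 libraries. Lgr5 and Ccnd1 met in 1 cell against 3.59 at E15.5 (0.0071 to 1.55). Axin2 and Lef1 met in 6 cells against 3.21 at E14.5 and in 2 against 3.79 at E15.5, both with intervals that hold 1.

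**Figure D5:**
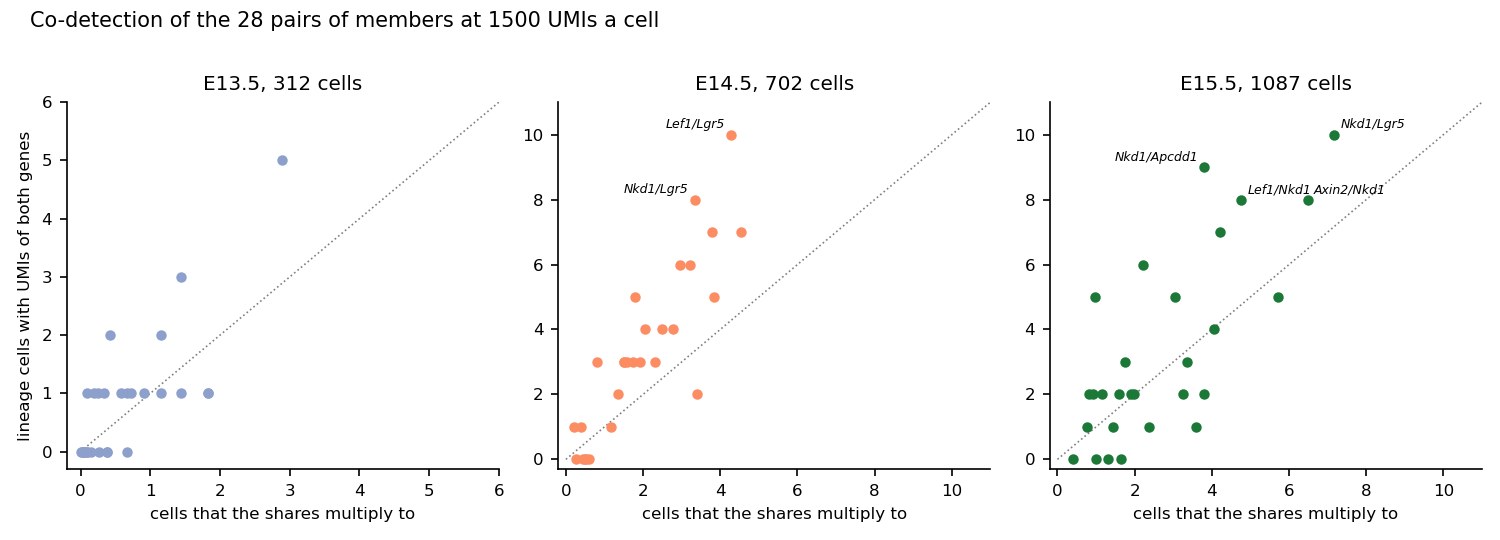
Number of lineage cells with UMIs of both genes of a pair (y axis) against the number that the 2 shares multiply to (x axis), 1 point for each of the 28 pairs, with cells thinned to 1500 UMIs; the dotted line marks equality. At E14.5 most points lie above the line, led by Lef1 with Lgr5 (10 cells against 4.27), and at E15.5 the points lie on both sides.

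Dividing the thinned lineage cells by detection of Axin2 gave little separation of the other 7 members, but this split can show little. Without thinning, lineage cells with Axin2 held on average 1.05, 1.10 and 1.21 of its UMIs. Cells with no UMI may thus hold undetected Axin2, and a lack of separation is no measure of Wnt response. At E14.5 the 45 cells with an Axin2 UMI had 163 CPM of Lef1 (11 UMIs) against 61.9 CPM in the 657 cells without (log2 1.38, fold 1.25 to 5.05). At E15.5 the order was the other way, at 17.8 CPM (2 UMIs in 75 cells) against 50.7 CPM, with an interval that holds 1 (0.042 to 1.31). The E14.5 Lef1 value was the only one of these comparisons in the 3 libraries whose interval lay off 1. The positive cells numbered 15, 45 and 75, and members more than 2-fold higher in them numbered 2, 1 and 2, where 20.4%, 16.5% and 11.7% of all genes were, and members lower by as much 0, 1 and 2, where 40.8%, 21.2% and 13.4% were. The Lef1 value did not hold when cells were thinned to 1000 UMIs: at E14.5 it stood at 133 against 89.4 CPM (0.40 to 3.97), and the 72 positive cells of E15.5 had 0 Lef1 UMIs, against 55.9 CPM in the others (fold at most 0.94). At that depth Apcdd1 was higher in the positive cells of E15.5, at 83.3 against 27.2 CPM (1.05 to 7.37), on 6 UMIs, and Lgr5 in the 12 positive cells of E13.5, at 333 against 84.7 CPM (1.01 to 11.1), on 4 UMIs. The members past 2-fold higher at E13.5 were then Nkd1, Lgr5 and Ccnd1 in place of Nkd2 and Apcdd1, where 20.4% of all genes were.

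The rest of the pathway did not shift as a block. Of 17 receptors and co-receptors, 14 had enough counts to test, and from E13.5 to E15.5 in the lineage 2 were more than 2-fold higher and 2 lower, beside the 10.1% and 5.41% of all tested genes given above. Lgr6, a relative of Lgr5, went from 1 UMI to 26 and 91 (0.733, 8.23 and 18.5 CPM; fold interval on the log2 scale 2.15 to 9.98), and the co-receptor gene Lrp5 was higher by 1.36. The Frizzled genes Fzd9 (-1.73) and Fzd3 (-1.38) were lower. Of 12 tested genes of the destruction complex and its relay, 0 were higher and 1 lower, Apc2 (-1.95), with Gsk3a at 0.67, Btrc at 0.55 and Gsk3b at -0.44. All 12 nuclear TCF partners stayed within 2-fold, with Tcf7l1 at 0.87 and Bcl9l at 0.80, and Tle4 at -0.58 and Ctbp1 at -0.51. Of 20 other targets and feedback genes, 11 could be tested, with 4 higher and 2 lower. Tnfrsf19 (2.61) and Cd44 (2.15) were the highest and Dkk1 (-2.25) and Prox1 (-2.07) the lowest, while the common targets Sp5 and Notum had at most 4 and 3 UMIs in a library. Of 4 R-spondins, 3 could be tested. The ligand gene Rspo1 was higher by 1.97, Rspo2 was level at 0.04 and Rspo3 was lower, at -0.59. The list medians were 0.28 for receptors, -0.10 for the destruction complex, 0.30 for nuclear partners, 0.35 for other targets and 0.04 for R-spondins, beside -0.03 over all tested genes.

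Genes with the most similar pattern were sought over 25 sums of a class or part of a class at a stage, among 11801 genes. Lgr5 was most like Ror1, which encodes a Wnt co-receptor, with a Pearson correlation of 0.877, followed by Lpar1 and Adcy2. Nkd1 was most like Col26a1 (0.874), Cyp7b1 and Kcnt2, and Apcdd1 like Nfix (0.847), Arsj and Ehbp1. Ccnd1 was most like Coro2b (0.799), Tpx2 and Dusp23. Lef1 was most like Map2k7 (0.791), Sap30bp and Armcx6, Tcf7 like Prss35 (0.781), Tm9sf4 and Timp1, Axin2 like Pcsk5 (0.770), Mfap2 and Ephb3, and Nkd2 like Ttbk2 (0.764) and Rars2. Between members the highest value was 0.64, of Axin2 and Lgr5, and the lowest -0.44, of Nkd2 and Ccnd1. The sums share libraries and their shallow classes, and the top genes were the best of many, so these values describe the 25 sums and no more.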

How the data were processed

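Single-cell 10x libraries of wild-type palatal shelves were read as the UMI counts per gene and cell that the authors deposited, made with Cell Ranger 6.1.2 against mm10 per the submitters' processing notes and the file headers. Barcodes with at least 500 genes and at most 20% mitochondrial UMIs were kept, and the top-scoring cells by Scrublet, 0.8% per 1000 cells, were left out as doublets (109, 25 and 55 cells), leaving 3583, 1750 and 2585 cells. Classes were gated on markers (at least 3, and a margin of 1; 2 for parts of a class), and Leiden clusters (scanpy 1.11.5, members left out) served as an alternative. Counts were summed per class as CPM. With 1 library per stage there is no test, and a call means a 2-fold ratio, with 1 CPM added to both, among genes with a mean of at least 5 CPM; intervals are Poisson, binomial or Clopper-Pearson at 95%. Shares and co-detection used cells thinned to 1500 UMIs. The ratio script was tested on simulated data. All 8 members are named; of each pathway list the 2 highest and 2 lowest ratios, of each class holding a member's top level its 2 leading genes (at least 100 CPM), and per member the 3 genes most like it (log2 of CPM plus 5, genes with at least 20 CPM in 2 sums). Clusters are named by their leading genes. The members, lists and regulators were chosen with earlier results of these data known. Some genes that this rule selects are not reported here.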

Additional observations from a re-analysis of the deposited data

Results flagged for a closer look

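Opposite directions in different groups of cells stood out for Ccnd1, Lef1 and Lgr5; in each case the counting intervals of both groups lay on opposite sides of no change, and the difference between the groups was not tested. From E13.5 to E14.5 Ccnd1 was lower in the mesenchymal lineage (log2 ratio -0.46) and higher in neuronal cells (0.65, 48.8 to 76.8 CPM) and in myeloid cells (3.22). The myeloid value rests on 1 UMI in 20 cells at E13.5 (fold interval 1.63 to 402). From E13.5 to E15.5 Ccnd1 was lower in the lineage (-0.99) and higher in neuronal cells (0.88, fold interval 1.37 to 2.49), whose number went from 1631 to 152 cells. The neuronal cells compared were of different kinds: they were led by Slc17a6 and Ina at E13.5, by Olfr1323 and Olfr745 at E14.5 and by Cnpy1 and Fstl5 at E15.5, and of the 5 neuronal clusters 4 came almost wholly from E13.5 and the one with olfactory receptor genes mostly from the later libraries. From E14.5 to E15.5 Ccnd1 was lower in the lineage (-0.53) and higher in glial cells (1.21, 15 UMIs in 24 cells and 43 UMIs in 40 cells), while the share of glial cells with a cycling signature went from 62.5% to 27.5%. Over the same step Lef1 was lower in the lineage (-0.57) and higher in epithelium (1.88, 4 UMIs in 88 cells and 39 UMIs in 216 cells), where stratified cells were 51 of 88 at E14.5 and 139 of 216 at E15.5. From E13.5 to E15.5 Lgr5 was lower in cycling lineage cells (-0.60) and higher in those with no cycling signature (0.62). The E13.5 cycling level rests on 61 UMIs in 102 cells. Of the 119 Lgr5 UMIs in the E13.5 lineage, 17 were in 1 cell, so the counting intervals understate the spread.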

How the results depend on the processing

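No paired analysis was possible because each stage is 1 library and its replicate number is only an accession order. The number of members past 2-fold between E13.5 and E14.5, 2 as reported, was 1 with 1 more marker per gate, with no cell left out by doublet score, with cells placed in the lineage by both gate and cluster (an alternative chosen after seeing the data), with 5 CPM added, with a mean of at least 20 CPM and with the cell mix of E15.5, and 5 with all cells of the library; the last also gave 5 in place of 3 for E15.5 against E13.5. Beside these counts of 1, between 7.27% (5 CPM added) and 12.6% of all tested genes were past 2-fold in either direction, 11.9% as reported, and 24.3% with all cells. The count of 3 for E15.5 against E13.5 was 2 with classes from clusters, 5 CPM added, a mean of at least 20 CPM and the cell mix of E15.5. It was also 2 with the cluster mix of E15.5 and with gate and cluster both, chosen after seeing the data. Between 10.2% and 15.9% of all genes were then past 2-fold. With each cell weighted equally it was 4, against 17.6%. The share of lineage cells with an Axin2 UMI was 9.57%, 10.6% and 11.8% without thinning, and 3.28% and 5.29% at E14.5 and E15.5 when thinned to 1000 UMIs. At that depth 1 member in place of 2 was more than 2-fold higher in Axin2-positive cells at E15.5, and 5 in place of 2 lower, 4 of them with 0 UMIs, where 16.1% and 18.3% of all genes were. With a mean of at least 20 CPM, 7 other pathway genes in place of 12 were past 2-fold. Lef1 in osteogenic over other mesenchymal cells at E15.5 turned to -2.04 with 1 more marker. Lgr5 in stratified over other epithelial cells turned from -1.19 to 2.05 at E13.5 with 1 marker fewer, and from 1.11 to -0.34 with 1 more marker, -0.72 with 1 fewer and -0.34 with each cell weighted equally at E15.5, on 7 and 19 UMIs; the cause was not tested. Of 732 planned values of single genes under an alternative, 671 stayed within the counting interval, 56 moved out of it and 5, listed here, changed sign from past 2-fold. A further 17 that were within 2-fold changed sign, 15 of them inside the interval; the other 2 were Lef1 (0.28) and Ccnd1 (0.11) from E13.5 to E14.5 with all cells. Of 266 values under alternatives added after seeing the data, 255 stayed, 10 moved and Apcdd1 from E13.5 to E14.5, past 2-fold as reported, changed sign (-0.011 with the cluster mix of E15.5). That mix kept 15 of 24 stage ratios. Among the 8 it moved, 4 changed sign: Lgr5 from E13.5 to E14.5 (-1.07), from E13.5 to E15.5 (-1.69) and from E14.5 to E15.5 (-0.62), and Axin2 from E14.5 to E15.5 (-0.18). Another 5 of the 266 changed sign inside the interval. Depth limits Tcf7 and Nkd2 in every class, and Nkd1 in epithelium, where it had 0 to 2 UMIs.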
